A study of Mus musculus with 2 samples.

Results

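The histone genes of the Hist clusters were described in single cells of I1DN leukemia progenitors, sorted from mice as cKit+ and Cd11b- and profiled on the 10x Genomics droplet platform. Mice of 1 group had received AG-120 (ivosidenib, an inhibitor of mutant IDH1) for 5 days and mice of the other group the vehicle. Each treatment has 1 library, so the differences below are between 2 libraries and no replicate tells how they relate to the treatment. The series title places the comparison in the question of how mutant IDH1 inhibition bears on the cycling of leukemia stem cells. The labels do not spell out the I1DN genotype, the age of the mice or how many mice were pooled, and they give no untreated group. All genes whose symbol starts with Hist1h, Hist2h, Hist3h or Hist4h were taken, which gave 67 of the 31053 genes in the files. Of these, 59 reached 50 UMIs (unique molecular identifiers, counted transcripts) over both libraries and were ranked, and 58 reached 50 UMIs in each library alone.

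Histone genes of these clusters encode the core histones H2A, H2B, H3 and H4, around which DNA is wound in nucleosomes, and the linker histone H1, which binds where DNA enters and leaves the nucleosome. Most are replication-dependent: their mRNA accumulates while DNA is copied in S phase and is degraded afterwards, so in blood progenitors a high level marks cells in S phase. Their mRNA usually ends in a stem-loop, bound by the protein SLBP, in place of a poly(A) tail. Some members also make polyadenylated mRNA, which can be present outside S phase, and the reverse transcription of these kits starts from poly(A).

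The stem-loop letters are shown first because they are the sequence that sets these genes apart from nearly all others, and because the mRNA that carries a poly(A) tail is the kind the assay captures best. The 16 letters of the stem and loop, with 3 positions left free, were searched on the transcript strand of the GENCODE mouse release 21 annotation (GRCm38). They stand after the stop codon in 41 of the 67 histone genes (61.2%), against 47 of all 55450 annotated genes with the letters anywhere in a transcript (0.0848%). In 15 histone genes the annotated transcript ends within 20 bases after the stop codon, so that the letters could not have been seen there. The sites of some of the members named below are given 5′ to 3′ as DNA, with the loop and its stem in capitals.
Hist1h2ap: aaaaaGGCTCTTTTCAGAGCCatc
Hist1h2ae: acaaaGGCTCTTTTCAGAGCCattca
Hist1h1e: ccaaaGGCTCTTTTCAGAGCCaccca
Hist1h1c: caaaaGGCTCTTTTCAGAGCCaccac
Hist1h3b: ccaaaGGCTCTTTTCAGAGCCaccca
Hist1h3e: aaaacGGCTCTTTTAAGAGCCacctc
Hist3h2ba: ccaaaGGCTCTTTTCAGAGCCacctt
Hist1h4n: ctaaaGGCCCTTTTCAGGGCCatcca
Hist1h4i: ttaaaGGCCCTTTTTAGGGCCaccac
Hist4h4: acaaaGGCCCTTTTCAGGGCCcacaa
The stem opens with GGCCC in the H4 genes shown and with GGCTC in the H1, H2A, H2B and H3 genes shown. The annotated transcripts of Hist1h1b, Hist1h1a and Hist1h2bc, among others, do not hold these letters. That of Hist1h1b has 0 bases after the stop codon, so the letters could not have been seen there. That of Hist1h1a has 48 bases after it and that of Hist1h2bc 742. The Hist1h2bc gene spans chr13:23684199-23692908 but its transcript has 1156 bases, and the bases spliced out were not searched. The poly(A) signal letters AATAAA or ATTAAA follow the stop codon in 22 of the 67 genes (32.8%), among them Hist1h2bc, Hist1h2ae, Hist1h4i and Hist4h4, and 15 genes hold both kinds of letters.

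The upstream sequences of the 4 members with most UMIs are shown because their classes differ in the letters they carry. Promoters (250 bases before to 50 after the start) were found in RefSeq, build GRCm38.p6, for 62 of the 67 genes. The 150 bases before the RefSeq start are printed, all on the minus strand and read 5′ to 3′ towards the gene. Capitals mark matches on either strand to the CCAAT box, the TATA box letters TATAAA, the E2F-like string TTTNGCGC, the octamer ATTTGCAT, the H1 box letters AAACACA or the H4 element core GGTCCG. On the other strand the CCAAT box reads ATTGG. None of these strings contains another.
Hist1h2ap, chr13:21833476-21833625: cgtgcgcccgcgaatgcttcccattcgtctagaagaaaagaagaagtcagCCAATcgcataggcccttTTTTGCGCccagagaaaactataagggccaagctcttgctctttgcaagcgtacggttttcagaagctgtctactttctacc
Hist1h2ae, chr13:23571221-23571370: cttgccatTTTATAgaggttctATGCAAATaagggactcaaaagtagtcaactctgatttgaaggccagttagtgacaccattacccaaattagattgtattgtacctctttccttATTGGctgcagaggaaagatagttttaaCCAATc
Hist1h1b, chr13:21780626-21780775: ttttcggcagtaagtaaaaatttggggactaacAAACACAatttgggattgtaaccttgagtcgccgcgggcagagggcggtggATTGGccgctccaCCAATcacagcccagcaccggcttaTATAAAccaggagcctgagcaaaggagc
Hist1h4i, chr13:22041363-22041512: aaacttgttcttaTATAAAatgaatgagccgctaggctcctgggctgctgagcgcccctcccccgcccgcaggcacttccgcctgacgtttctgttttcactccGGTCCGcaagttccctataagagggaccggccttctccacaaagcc
CCAAT stood in 53 of the 62 histone promoters (85.5%), in all matched promoters of H1, H2A, H2B and H3 and in 3 of 12 of H4, against 37.4% of all 32851 promoters. GGTCCG, the core of the element known to bind HINFP at H4 genes, stood in 11 of 12 H4 promoters against 8.25% of all promoters. AAACACA, known from H1 promoters, stood in 5 of 6 H1 promoters against 7.18%. ATTTGCAT, the octamer bound by POU2F1, stood in 7 H2A and 6 H2B promoters and in none of the other classes, against 1.74% of all promoters. TTTNGCGC, an E2F-like string, stood in 7 H2A and 7 H2B promoters and in none of the other classes, against 1.38%. The windows of H2A and H2B genes that stand head to head can overlap. A site then counts for both genes, as TTTNGCGC does for Hist1h2ap and Hist1h2br. The printed Hist1h2ae window lies in the 176 bases between Hist1h2ae and Hist1h2bg. Its TATA box and octamer letters are on the other strand and read towards Hist1h2bg. A match of letters is a description of the window and not a bound site.

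The files hold 3914 vehicle and 3756 AG-120 cells with at least 500 genes and at most 10% mitochondrial UMIs, with medians of 13156.5 and 25681.5 UMIs per cell. Because the AG-120 cells were deeper, comparisons between kinds of cells used each cell thinned to 6500 UMIs, which left 3553 and 3625 cells and dropped 361 and 131. The libraries also held different cells: the summed erythroid list was at 505 CPM (UMIs per 1000000 UMIs of the library or, for a kind of cells, of those cells) in the vehicle library and 2909 CPM in the AG-120 library, and the megakaryocyte list at 861 and 79.8 CPM. The granulocyte-monocyte progenitor list was at 2976 and 982 CPM, the neutrophil list at 1913 and 525 CPM and the lymphoid list at 393 and 111 CPM, with 3 of 9 lymphoid genes at 0 in each library. Not all genes moved with the sum of their list: 2 of 11 erythroid genes were lower and 2 of 9 lymphoid genes higher in the AG-120 library. Kit had a UMI in 31.3% of vehicle and 17.6% of AG-120 thinned cells, and Itgam, which encodes Cd11b, in 3.35% and 0.662%. Of the cell barcodes, 20 occur in both libraries. The median AG-120/vehicle ratio over the 11811 genes with 50 UMIs or more was 0.882, a shift of −0.18 on the log2 scale.

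Histone transcripts made up 0.228% of UMIs in the vehicle library and 0.155% in the AG-120 library. Their summed level was 2284 CPM in the vehicle library and 1548 CPM in the AG-120 library, an AG-120/vehicle ratio of 0.678 (95% interval 0.673 to 0.683; here and below such intervals cover counting error only). Of the 59 ranked members, 41 were lower by at least 1.5-fold in the AG-120 library and 0 were higher by that much. Over all 11811 genes, 32.2% were lower and 16.6% higher by that fold. The members' median ratio was 0.501 against 0.882 over all genes, with a range from 0.181 for Hist1h2br to 1.39 for Hist1h1b. The share of RNA in a library cannot tell fewer histone-rich cells from less histone mRNA per cell, and the comparisons within kinds of cells below address this in part. A share, also in thinned cells, cannot tell less histone mRNA per cell from more other RNA per cell. Counted as UMIs, histone transcripts numbered 128467 in 3914 vehicle cells and 148714 in 3756 AG-120 cells, which were deeper.

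**Figure D1:**
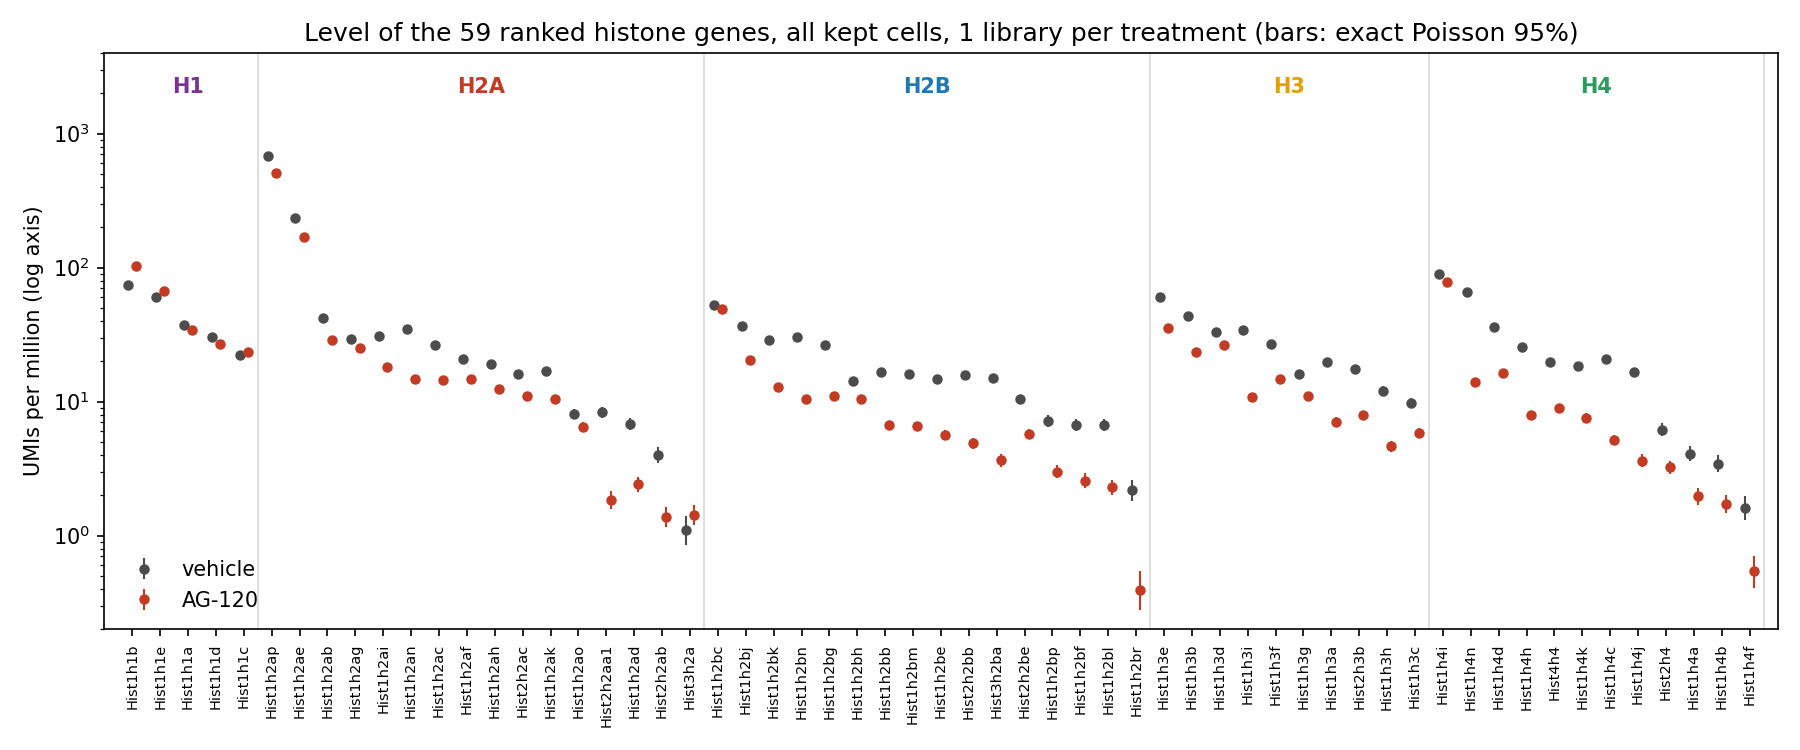
Level of each of the 59 ranked histone genes in CPM (log axis), grouped by class and ordered by total UMIs, in the vehicle library (grey) and the AG-120 library (red), with exact Poisson 95% bars. The 5 ranked H1 genes lie close together in both libraries, while most H2B, H3 and H4 genes are lower in the AG-120 library.

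The linker histone genes differed from the core classes. Their summed level was 224 CPM in the vehicle library and 254 CPM in the AG-120 library, a ratio of 1.14, and none of the 5 ranked H1 genes was past 1.5-fold in either direction. The summed H2A level was 1179 and 841 CPM (ratio 0.713), that of H2B 301 and 155 CPM (0.516), that of H3 273 and 148 CPM (0.540) and that of H4 308 and 150 CPM (0.487). Members lower by 1.5-fold or more were 8 of 16 in H2A, 14 of 16 in H2B, 8 of 10 in H3 and 11 of 12 in H4. H1 therefore took 9.79% of histone UMIs in the vehicle library and 16.4% in the AG-120 library, while H4 took 13.5% and 9.69%. With the ratios centred on the median of all genes, 37 members were lower and 1 was higher by 1.5-fold, and the summed ratio became −0.38 on the log2 scale from −0.56.

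Hist1h1b, a linker histone gene (chr13:21779883-21780625, minus strand), was the member furthest to the AG-120 side, at 74.1 CPM in the vehicle library and 103 CPM in the AG-120 library (ratio 1.39, 1.34 to 1.44). Its share of histone UMIs was 3.24% and 6.63%. Hist1h1e was at 59.9 and 66.5 CPM (1.11, 1.06 to 1.16) and Hist1h1c at 22.2 and 23.7 CPM (1.07, 0.996 to 1.15), both linker histone genes. Hist1h1a, another of them, was at 37.4 and 34.3 CPM (0.919, 0.870 to 0.971). Hist1h1a and Hist1h1d, at 0.919 and 0.892, lay above the all-gene median of 0.882 and so turn to the higher side when ratios are centred on it, as does Hist1h2bc at 0.923. In all, 7 ranked members lay above that median. None of the 100-base windows of the Hist1h1b and Hist1h1a transcripts occurs in a transcript of another gene.

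Hist1h2ap, an H2A gene (chr13:21833026-21833507, minus strand), gave the most UMIs of all members in both libraries, with 29.7% of histone UMIs in the vehicle library and 32.7% in the AG-120 library. Its level was 677 CPM and 507 CPM (ratio 0.748, 0.738 to 0.758). It ranked first per length too, at 1405 and 1051 CPM per kb. Its coding sequence is identical to that of Hist1h2ao, which was at 8.11 and 6.47 CPM (ratio 0.798), and 92.2% of its 100-base windows occur in other transcripts, so its level depends on how the counting assigned shared reads. Hist1h2ae, also H2A, was at 236 and 171 CPM (0.723, 0.707 to 0.740), with 30.7% of its windows shared. The order of these 2 genes, Hist1h1b and Hist1h4i at ranks 1 to 4 was the same per kb of transcript.

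Among the H4 genes the members ran from little difference to the steepest. Hist1h4i was at 89.5 CPM in the vehicle library and 78.7 CPM in the AG-120 library (ratio 0.879, 0.849 to 0.912), which is at the all-gene median. Hist1h4n was at 65.3 and 14.1 CPM (0.216, 0.203 to 0.230), and Hist1h4j at 16.6 and 3.63 CPM (0.219, 0.193 to 0.248). Hist1h4n shares 80.7% of its windows with other genes and Hist1h4i 15.1%. All of these encode H4, the most conserved of the histones.

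Other members with the lowest ratios were of low level. Hist2h2aa1, an H2A gene, was at 8.30 CPM in the vehicle and 1.85 CPM in the AG-120 library (0.223). Hist3h2ba, an H2B gene, was at 15.0 and 3.64 CPM (0.242). Hist1h2br, an H2B gene with 123 and 38 UMIs, was at 2.19 and 0.395 CPM (0.181, 0.122 to 0.262) and shares 99.8% of its windows. Hist3h2a, an H2A gene, was at 1.10 and 1.43 CPM, with a ratio of 1.29 whose interval (0.951 to 1.78) includes 1.

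The H3 genes and Hist1h2ab, an H2A gene, lay between these ends. Hist1h3e was at 60.2 and 35.4 CPM (0.588), Hist1h3b at 43.9 and 23.5 CPM (0.535) and Hist1h3d at 33.2 and 26.4 CPM (0.795). Hist1h2ab was at 42.2 and 28.8 CPM (0.684). Hist1h2bc, an H2B gene, had the highest ratio of the ranked H2B genes, at 52.9 and 48.8 CPM (0.923, 0.882 to 0.967), and the next, Hist1h2bh, had 0.734. Members that shared under 25% of their windows had a median ratio of 0.550 (22 genes) and those that shared 75% or more 0.456 (11 genes).

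The 8 members under the minimum were Hist2h3c1, Hist1h2bq, Hist2h2aa2, Hist2h3c2, Hist1h4m, Hist1h1t, Hist1h2ba and Hist1h2aa. Just inside it, Hist1h4f had 143 UMIs over both libraries and just outside it, Hist2h3c1 had 39. Hist1h1t, a testis linker histone gene, had 1 UMI. Hist1h2ba and Hist1h2aa, a testis H2B and H2A pair, had 0 UMIs in both libraries.

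Of the ranked members, 49 lie in the Hist1 cluster on chromosome 13. Split at gaps of over 50 kb, its first 4 gene groups held similar ratios of summed level. The group at chr13:21715763-21837530, with 16 ranked members, was at 1052 CPM in the vehicle and 723 CPM in the AG-120 library (0.687). The group at chr13:22035164-22043676, with 5 members, was at 203 and 150 CPM (0.736). The group at chr13:23531050-23622558, with 16 members, was at 615 and 423 CPM (0.687). The group at chr13:23681467-23764406, with 12 members, was at 299 and 202 CPM (0.675). The sums rest on a few genes, and Hist1h2ap alone was at 677 of the 1052 CPM of the first group in the vehicle library. The median ratio of the members differed more between the groups, at 0.409, 0.657, 0.568 and 0.541 in that order. The first group holds both the lowest ratio, Hist1h2br, and the highest, Hist1h1b.

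**Figure D2:**
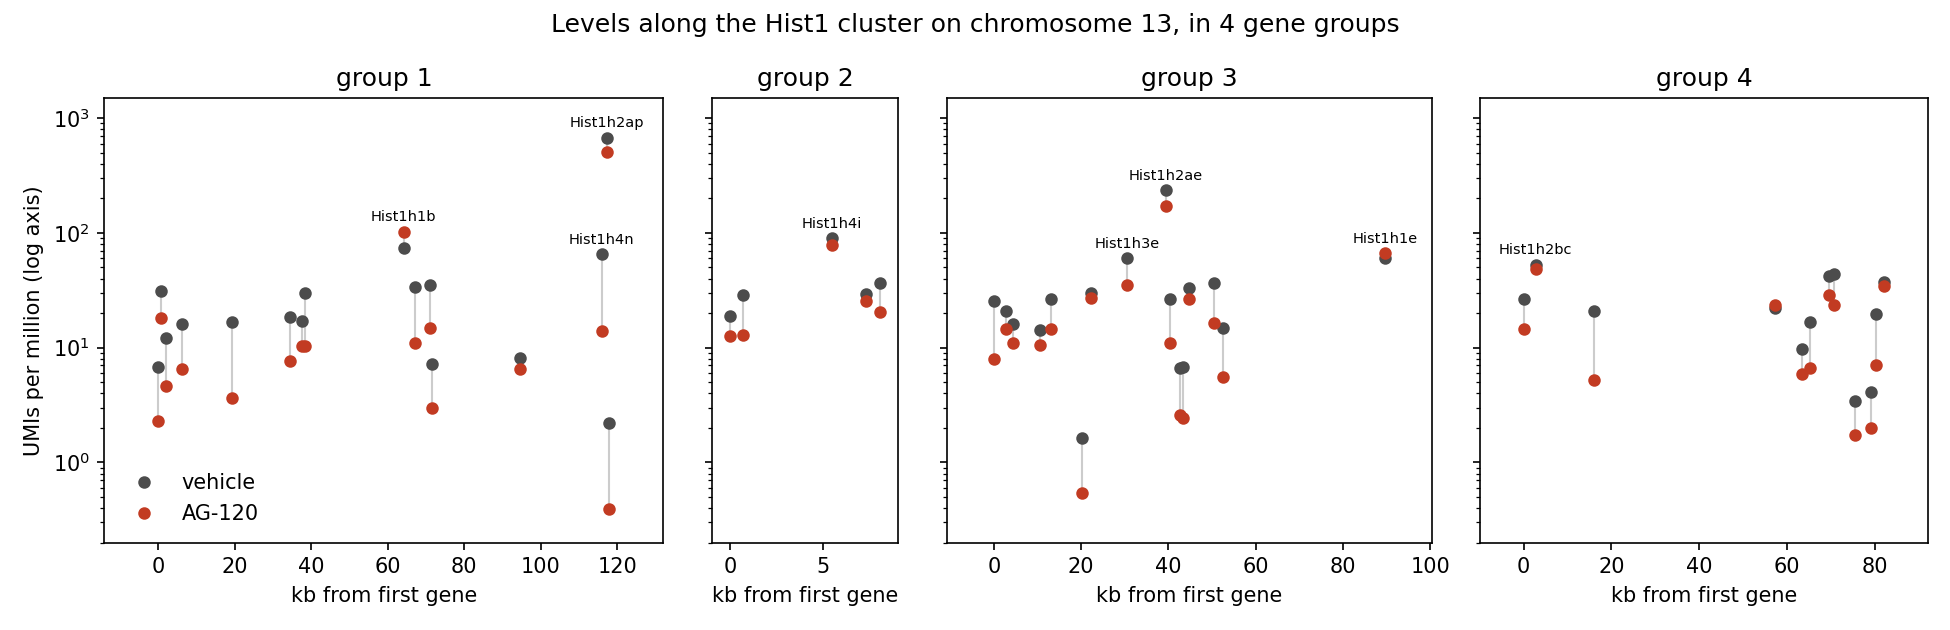
Levels in CPM (log axis) of the ranked Hist1 members against their distance in kb from the first member of each of the 4 gene groups on chromosome 13, in the vehicle (grey) and AG-120 (red) libraries, joined by a line per gene. The summed ratio lies between 0.675 and 0.736 in the 4 groups, while neighbouring genes differ in their drop.

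Many H2A and H2B genes stand head to head and share the DNA between their starts. Counted in the Hist1 cluster only, there were 9 such pairs with both genes ranked, and Hist1h2bh stands head to head with an H3 gene, Hist1h3f. Hist2h2ac and Hist2h2be on chromosome 3 also stand head to head, with ratios of 0.685 and 0.553. They are not in the counts below. Hist1h2ap and Hist1h2br lie 236 bases apart, with levels of 677 and 2.19 CPM in the vehicle library and ratios of 0.748 and 0.181. Hist1h2ae and Hist1h2bg lie 176 bases apart, with ratios of 0.723 and 0.415. Hist1h2an and Hist1h2bp, 243 bases apart, had nearly the same ratio, 0.423 and 0.421. Hist1h2ac and Hist1h2bc, 251 bases apart, had ratios of 0.547 and 0.923, with the H2B gene on the higher side. Hist1h2bf and Hist1h2ad, 185 bases apart, were alike in level, at 6.69 and 6.81 CPM in the vehicle library, and in ratio, 0.385 and 0.355. The ratios of the partners were within 1.2-fold of each other in these 2 of the 9 pairs, Hist1h2an with Hist1h2bp and Hist1h2bf with Hist1h2ad, and at least 1.5-fold apart in 6. The H2A gene had the higher ratio in 7 of the 9.

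Cells were then split by a UMI of Mki67, which encodes a protein of dividing cells. After thinning, 1286 vehicle cells (36.2%, 34.6 to 37.8%, exact binomial) and 2210 AG-120 cells (61.0%, 59.4 to 62.6%) held one. In the vehicle library the summed histone level was 4289 CPM in cells with Mki67 and 817 CPM in cells without (ratio 5.25, 5.14 to 5.36). Among AG-120 cells it was 1789 and 974 CPM (ratio 1.84, 1.79 to 1.88). Cells with Mki67 held 74.9% of histone UMIs in the vehicle and 74.2% in the AG-120 library.

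Of 58 members with enough UMIs in thinned cells, 55 were higher by 1.5-fold or more in vehicle cells with Mki67 than in those without, and 34 were in AG-120 cells. The background shares of all 10709 genes were 9.72% higher and 7.65% lower in the vehicle library, and 3.39% higher and 8.39% lower in the AG-120 library. None of the 58 members was lower by that fold in either library. The members' median ratio was 3.59 in the vehicle and 1.68 in the AG-120 library. By class, the vehicle medians were 6.55 for H2A, 4.90 for H1, 3.70 for H2B, 3.40 for H3 and 2.30 for H4. The AG-120 medians were 2.08 for H2A, 2.02 for H1, 1.70 for H2B, 1.68 for H3 and 1.28 for H4.

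Hist1h2ap was at 1424 CPM in vehicle cells with Mki67 and 83.3 CPM in those without (17.1, 16.1 to 18.1). Among AG-120 cells the same gene was at 583 and 271 CPM (2.15, 2.06 to 2.25). Hist1h2af, an H2A gene, had the highest ratio of the members in each library, 23.4 in the vehicle one. Hist1h3b had 14.4 and 3.32, Hist1h2ae 12.1 and 2.26, and Hist1h1b 11.9 and 2.10. Hist1h2ab had 9.73 and 2.95, Hist1h2ak, an H2A gene, 5.79 and 2.79, and Hist1h2bp, an H2B gene, 4.71 and 2.97. For each of these 8 members the vehicle ratio was the larger, and the difference between the libraries has no replicate test. The AG-120 ratio was the larger for Hist4h4, described next, for Hist1h4c, an H4 gene (1.78, 1.49 to 2.14, in the vehicle and 2.82, 1.76 to 4.71, in the AG-120 library), and marginally for Hist2h2aa1, an H2A gene (1.91 and 1.92); Hist1h4c and Hist2h2aa1 were named after their values were seen.

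**Figure D3:**
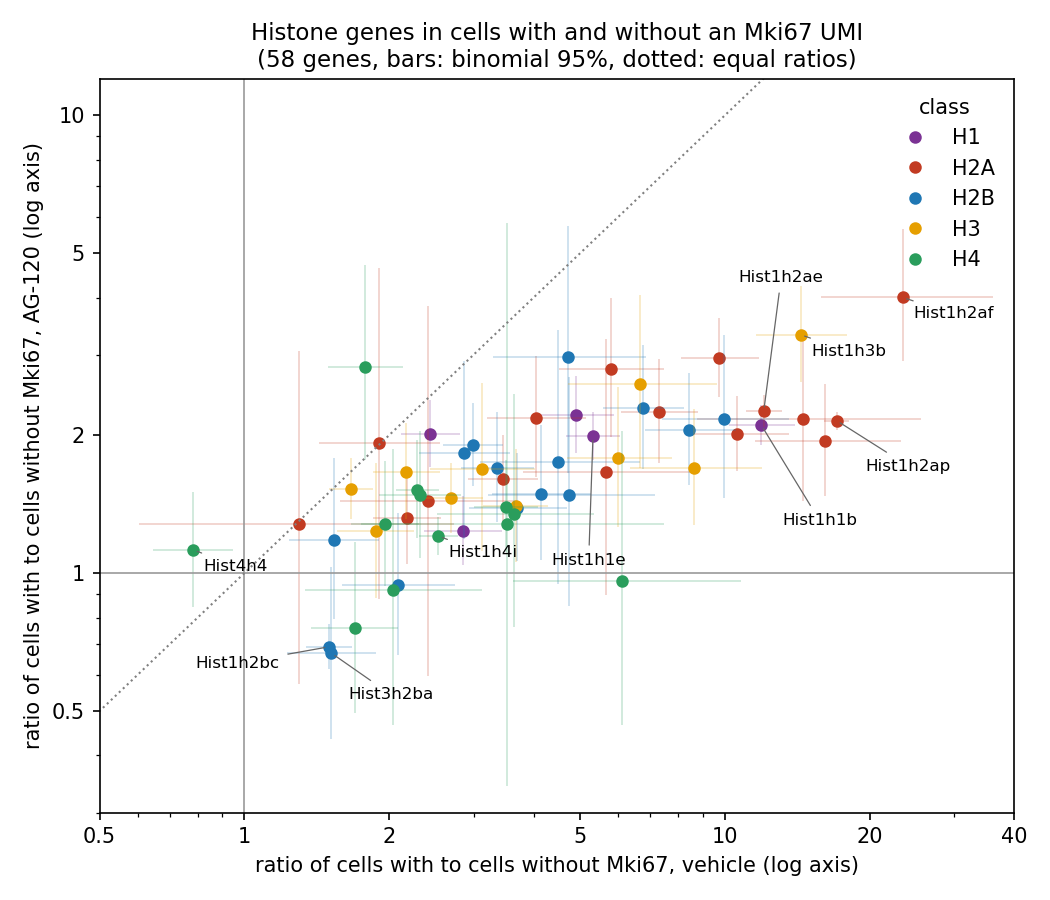
Ratio of each histone gene's level in cells with an Mki67 UMI to cells without, in the vehicle library (horizontal, log axis) and the AG-120 library (vertical, log axis), coloured by class, with binomial 95% bars; the dotted line marks equal ratios. Nearly all points lie below the dotted line, with Hist1h2af and Hist1h2ap farthest to the right and Hist1h2bc and Hist3h2ba lowest on the vertical axis, below 1.

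The lowest ratios belonged to another set of members. Hist4h4, an H4 gene alone in its cluster (chr6:136801553-136804415, minus strand), had 0.783 in the vehicle and 1.12 in the AG-120 library. Hist3h2a had 1.30 and 1.28, Hist1h2be, an H2B gene, 1.54 and 1.18, and Hist3h2ba 1.52 and 0.669. Hist3h2ba did not keep its direction in the AG-120 library, where its log2 ratio was −0.58 as given, 0.99 after thinning to 3000 UMIs and 0.61 when cells were split by Top2a instead of Mki67. Hist1h2bc was at 70.2 CPM with and 46.8 CPM without Mki67 in the vehicle library. AG-120 cells had the opposite direction, with 44.0 and 63.7 CPM (0.691). Split by Top2a, Hist1h2bc was lower in the cells with the transcript in both libraries, with log2 ratios of −0.43 and −1.01.

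Members whose transcript holds AATAAA or ATTAAA after the stop codon had a median Mki67 ratio of 2.14 in the vehicle library (18 genes), and those without 4.62 (40 genes). The AG-120 medians were 1.26 and 1.87. Counting only the 27 members without these letters whose transcript extends over 20 bases past the stop codon, the medians were 4.50 and 1.91. Among H2A and H2B members, those with TTTNGCGC upstream had a vehicle median of 7.87 (12 genes) and those without 3.45 (17 genes), and the AG-120 medians were 2.03 and 1.70. Genes that stand head to head can share 1 such site. These medians describe overlapping small sets, and members with near-identical transcripts share reads: members sharing 75% or more of their windows had a vehicle median of 6.65 and those sharing under 25% 2.77.

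Within the cells with Mki67, histone levels were lower in the AG-120 library. The summed level was 4289 CPM in vehicle and 1789 CPM in AG-120 cells (ratio 0.417, 0.410 to 0.424), and 53 of 58 members were lower and 0 higher by 1.5-fold. Of all genes, 31.7% were lower and 14.7% higher by that fold in these cells. The members' median ratio was 0.328 against 0.864 over all genes. Hist1h2ap had a ratio of 0.409, Hist1h2ae 0.394 and Hist1h1b 0.823. H1 was again the class with the highest median, 0.734, and H4 the one with the lowest, 0.241. Mki67 itself was at 219 CPM in the vehicle and 225 CPM in the AG-120 library. A UMI of it was found in 36.2% and 61.0% of thinned cells. The cells with Mki67 may therefore not be alike in the 2 libraries in how much Mki67 they held. The part of this in the histone ratios was not tested.

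Within the cells without Mki67, members split. Of 58, 24 were lower and 10 higher by 1.5-fold in the AG-120 library, against 29.6% lower and 18.3% higher among all genes. The higher count was near the share of all genes. The summed level was 817 CPM in vehicle and 974 CPM in AG-120 cells (1.19, 1.16 to 1.22), and without Hist1h2ap the ratio was 0.958. Hist1h2ap itself was at 83.3 and 271 CPM (3.25), Hist1h2ae had a ratio of 2.10 and Hist1h1b one of 4.66. The 7 members that were lower by 1.5-fold in cells with Mki67 and higher by 1.5-fold in cells without were Hist1h2ap, Hist1h2ae, Hist1h2ag, Hist1h2af, Hist1h2ah, Hist1h2ao and Hist1h3g. Of these, 6 are H2A genes and Hist1h3g is an H3 gene. The share of all genes that turned in this way was not counted.

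The direction of the summed level in cells without Mki67 depended on how such cells were chosen. It was 0.841 without thinning, where 644 AG-120 cells had no Mki67 UMI, and 0.887 among cells with neither Mki67 nor Top2a. Among cells without any of 16 cycle transcripts it was 0.524, from 132 vehicle and 12 AG-120 cells. The cells without Mki67 also differed in their other cycle transcripts. A UMI of the list of 10 mitotic genes was present in 846 of 2267 vehicle and in 1188 of 1415 AG-120 cells without Mki67. In cells with mitotic transcripts and no Mki67 the summed level was 993 CPM in the vehicle and 1061 CPM in the AG-120 library. In cells with neither it was 713 and 515 CPM. Hist1h2ap was higher in the AG-120 library in both kinds of cells, at 158 and 308 CPM with mitotic transcripts and at 39.0 and 74.6 CPM with neither. So was Hist1h1b, at 21.1 and 62.4 CPM and at 7.04 and 29.8 CPM.

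The spread over cells also differed between the libraries. With each cell at 6500 UMIs, vehicle cells held a median of 5 histone UMIs, a mean of 13.5 and a highest value of 175. AG-120 cells held a median of 8, a mean of 9.56 and a highest value of 97. The richest 12.6% of vehicle cells held 50% of the histone UMIs, against 23.1% of AG-120 cells. At least 20 histone UMIs were found in 785 vehicle cells (22.1%) and 376 AG-120 cells (10.4%). Among cells with Mki67 the medians were 26 and 11, and among cells without they were 4 and 4. Hist1h2ap reached at most 50 UMIs in a vehicle cell and 19 in an AG-120 cell, with variance-to-mean ratios of 13.2 and 3.46.

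**Figure D4:**
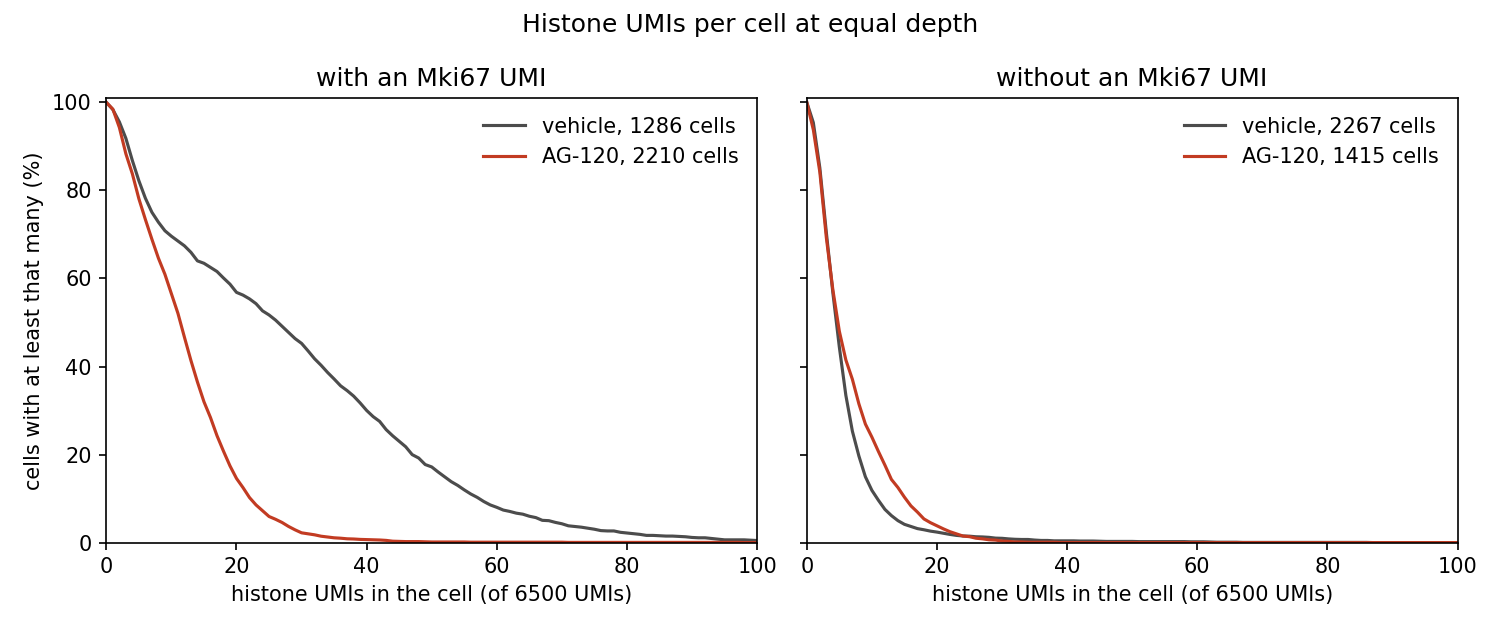
Percent of thinned cells (vertical) that held at least a given number of histone UMIs out of 6500 (horizontal, to 100), for cells with (left) and without (right) an Mki67 UMI, in the vehicle (grey) and AG-120 (red) libraries. Vehicle cells with Mki67 have a long upper range with a median of 26, while AG-120 cells with Mki67 have a median of 11; cells without Mki67 have a median of 4 in both.

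Cells were also placed by 10 G1/S and 10 mitotic marker genes: no UMI of either list, G1/S only, both, or mitotic only. The vehicle groups held 763, 775, 1395 and 620 cells and the AG-120 groups 65, 229, 2868 and 463. The summed histone level in the vehicle library was 831, 664, 3394 and 2396 CPM in that order. In the AG-120 library it was 426, 640, 1566 and 1439 CPM. In both libraries the level was highest where both lists were present, and the level in cells with G1/S transcripts only was well under that in cells with mitotic transcripts only, with ratios of 0.277 in the vehicle and 0.445 in the AG-120 library. Of the 59 members, 43 peaked in the group with both lists in the vehicle library, 14 in mitotic only, 2 in neither and none in G1/S only. The AG-120 counts were 25, 25, 7 and 2. The peak groups of all genes were not counted, so these counts do not set the members apart from other genes.

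**Figure D5:**
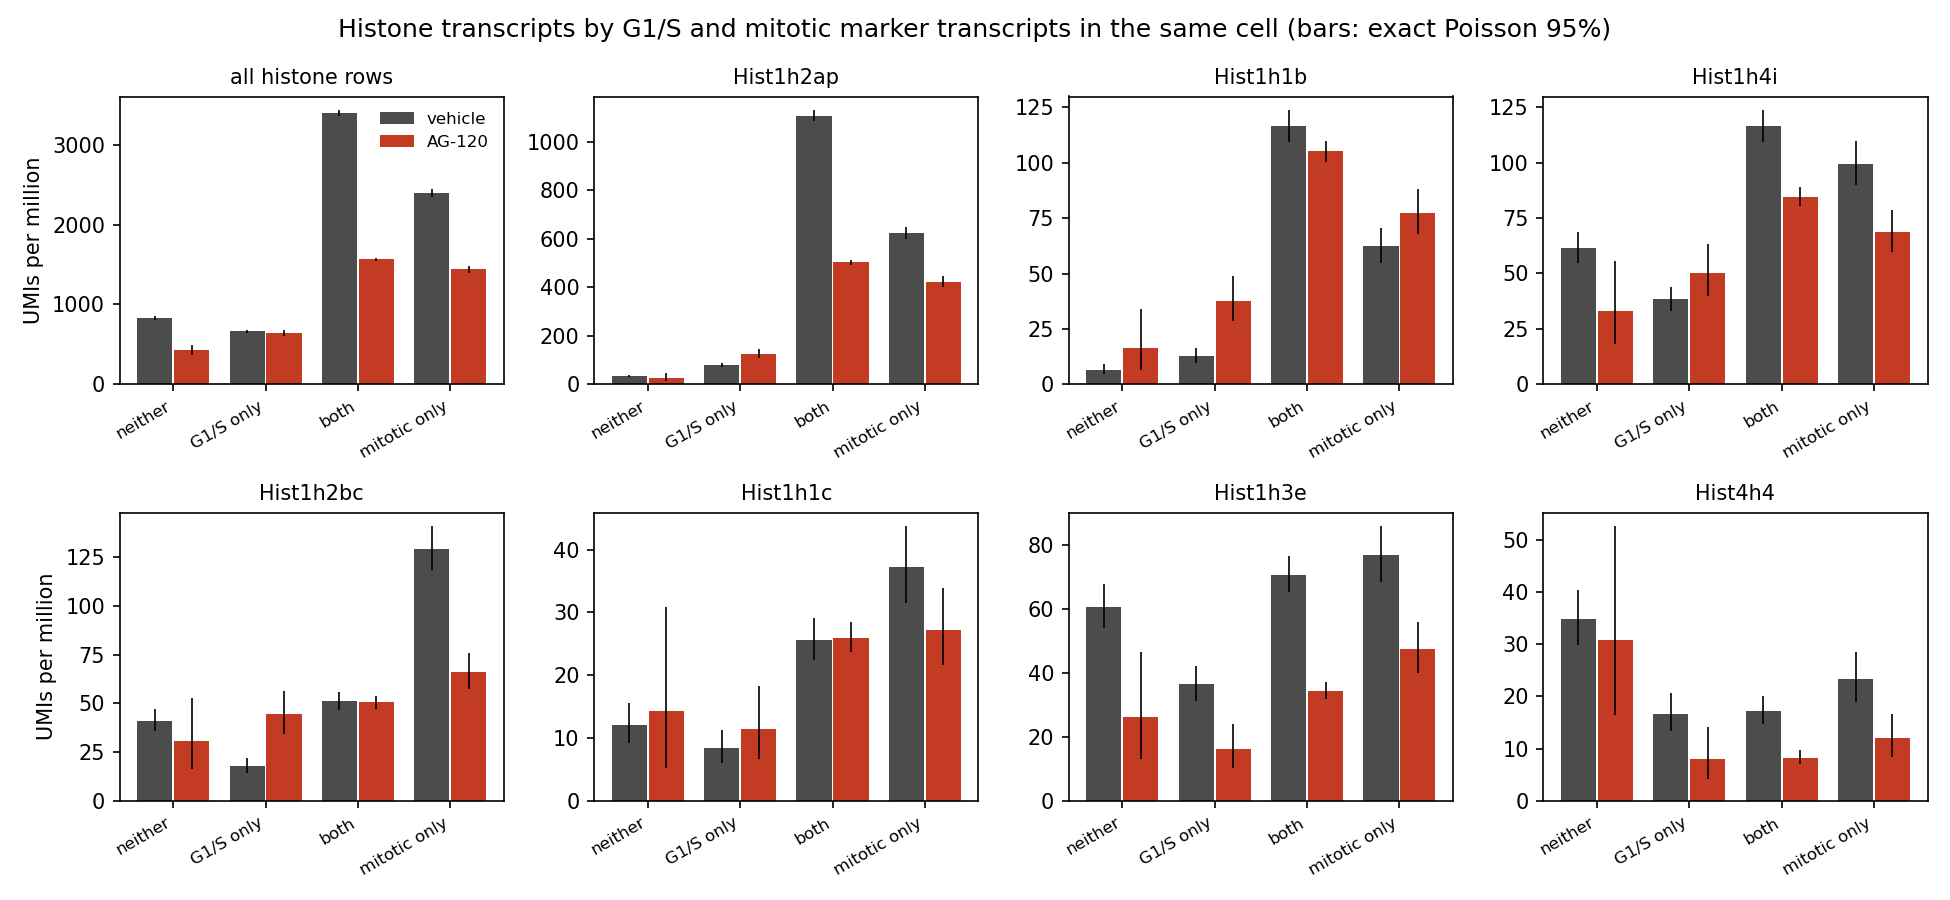
Level in CPM of all histone genes together and of 7 named members in the 4 groups of thinned cells, by G1/S and mitotic marker transcripts, in the vehicle (grey) and AG-120 (red) libraries, with exact Poisson 95% bars. Hist1h2ap and Hist1h1b are highest with both lists present, Hist1h2bc and Hist1h3e in mitotic only, and Hist4h4 in neither.

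Among the members plotted, Hist1h2ap differed most between vehicle cells with neither list and with both, at 34.1 CPM in vehicle cells with neither list and 1108 CPM in cells with both. In the AG-120 library it was at 26.0 and 504 CPM. Hist1h1b had the same order, with 6.65 and 117 CPM in the vehicle and 16.6 and 105 CPM in the AG-120 library. In G1/S only cells Hist1h1b was at 12.7 CPM in the vehicle and 37.6 CPM in the AG-120 library.

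Hist1h2bc had been singled out as high in cells without cycle transcripts. In the vehicle library it was among the higher members in such cells, but not above its own level over all thinned cells. It was at 41.1 CPM in cells with neither list, 17.9 CPM in G1/S only, 51.0 CPM with both and 129 CPM in mitotic only, its highest group. In the AG-120 library it was at 30.8, 44.3, 50.4 and 66.1 CPM in that order. Among vehicle cells with mitotic transcripts it was at 75.1 CPM with Mki67 and 74.9 CPM without. In AG-120 cells with mitotic transcripts it was at 44.5 CPM with and 67.2 CPM without Mki67. In the 132 vehicle cells without any of 16 cycle transcripts Hist1h2bc was at 43.1 CPM (30.4 to 59.4), against 55.3 CPM over all thinned vehicle cells. Of the 59 ranked members only Hist1h3e, Hist1h4i and Hist1h4n were higher in those 132 cells, at 89.7, 67.6 and 59.4 CPM. Over all kept cells of both libraries, Hist1h2bc ranked 6th of the members by UMIs and 16th per kb.

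In those 132 vehicle cells 14 of 59 members had a level above that over all thinned cells, but for 10 of the 14 the interval included the level over all thinned cells, and 2 rested on 5 UMIs or fewer. Of the 59, 24 were at or under 0.5 of that level. The shares of all genes above or under these limits in the same cells were not counted. Hist1h3e was at 89.7 CPM (70.8 to 112) against 62.05 CPM over all thinned vehicle cells, and Hist4h4 at 38.5 CPM (26.5 to 54.0) against 21.95 CPM. The other members with intervals above that level were Hist1h4c, at 35.0 CPM against 21.5 CPM, and Hist1h4j, at 26.8 CPM against 16.2 CPM. Hist3h2ba, at 19.8 CPM (11.5 to 31.7) against 15.7 CPM, was among the 10. Hist1h2ap was at 29.1 CPM against 568 CPM, Hist1h3b at 2.33 CPM against 37.7 CPM, and Hist1h1b, with 1 UMI in these cells, at 1.17 CPM against 60.8 CPM. In the AG-120 library only 12 cells lacked all 16 transcripts, so that 3 UMIs correspond to 38.5 CPM and 36 members were at 0. Free RNA in droplets was not estimated, and no cell type known to lack histone transcripts was found to set it: the 25 vehicle and 23 AG-120 cells with at least 50 UMIs of the neutrophil list were at 1975 and 1017 CPM of histone transcripts.

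The comparison was repeated in cells carrying a UMI of a single lineage gene, since the libraries held different cells. In Klf1 cells (Klf1 is an erythroid transcription factor gene; 200 vehicle and 2349 AG-120 cells) the summed histone ratio was 0.462 (0.447 to 0.478). In Cd34 cells (2275 and 197) it was 0.786, in Pf4 cells (1080 and 115; Pf4 is a megakaryocyte gene) 0.591, and in Mpo cells (2361 and 380; Mpo encodes myeloperoxidase) 0.774. In the cells of these gates that held Mki67 the ratios were 0.395, 0.527, 0.374 and 0.513, all below 1. In the cells that did not they were 1.14, 1.13, 1.29 and 1.12, but after thinning to 3000 UMIs the Klf1 and Pf4 values fell below 1, with log2 ratios of −0.36 and −0.14. In Klf1 cells, the share with Mki67 was close, 66.0% in the vehicle and 64.8% in the AG-120 library. In these cells Hist1h1b was at 99.2 CPM in the vehicle and 102 CPM in the AG-120 library (1.03, 0.862 to 1.25), while Hist1h2ap was at 1088 and 494 CPM (0.454). In the other gates Hist1h1b had ratios of 2.18 (1.80 to 2.61) in Cd34 cells, 1.95 (1.69 to 2.25) in Mpo cells and 1.30 (1.02 to 1.65) in Pf4 cells. Hist1h2ap had 0.810 in Cd34, 0.812 in Mpo and 0.640 in Pf4 cells.

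Genes that make and handle histones were counted from fixed lists. Of 15 genes for histone transcription and 3′ end processing, 0 were higher and 2 lower by 1.5-fold in the AG-120 library, with a median ratio of 0.924. Of all 11811 genes, 16.6% were higher and 32.2% lower, with a median of 0.882, and the 2 lists that follow are set against the same shares. Slbp, whose protein binds the stem-loop, was at 224 and 273 CPM (1.22, 1.195 to 1.25), and its ratio of cells with to cells without Mki67 was 1.65 in the vehicle and 1.02 in the AG-120 library. The 2 lower genes were E2f1, a transcription factor gene of the G1/S transition, at 35.7 and 21.98 CPM (0.616), and Zfp473, at 0.8001 and 0.479 CPM (0.598), whose protein takes part in histone 3′ end processing; both were named after their values were seen. Of 24 histone chaperone genes, 5 were higher, near the share of all genes, and 2 lower, with a median of 1.18. Npm1, a nucleolar chaperone gene, was at 1744 and 3767 CPM (2.16) and Set at 564 and 1000 CPM (1.77). The other higher ones, named after their values were seen, were Nasp, whose protein holds soluble H3 and H4, at 1.54, Asf1a at 1.75 and Daxx at 1.63, and the lower ones were Atrx at 0.469 and Spty2d1 at 0.647.

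Of 14 replacement histone genes outside the clusters, most of which have polyadenylated mRNA and are not tied to DNA replication, 10 had 50 UMIs or more. Of these, 1 was higher and 3 lower by 1.5-fold, the latter near the share of all genes, with a median ratio of 0.757. H2afz, the gene of H2A.Z, was at 2516 and 3203 CPM (1.27), H3f3a at 2225 and 1598 CPM (0.718) and H3f3b at 1786 and 1421 CPM (0.796), the last pair encoding the replacement H3. Cenpa, the gene of the centromeric H3, was the higher one (1.63), and H2afy (0.628), H1f0 (0.633) and H1fx (0.268) were the lower ones, the last at 2.52 and 0.676 CPM. H2afx, whose mRNA is also made in a stem-loop form during replication, was at 484 and 490 CPM (1.01), with Mki67 ratios of 5.17 in the vehicle and 1.65 in the AG-120 library. In vehicle cells 6 of the 10 were higher with Mki67 by 1.5-fold (median 2.05), against 9.72% of all genes. In AG-120 cells 1 was higher and 1 lower (median 1.04), against 3.39% and 8.39% of all genes.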

How the data were processed

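Single-cell RNA was measured in 1 vehicle and 1 AG-120 library of sorted I1DN progenitors. The deposited matrices hold raw UMI counts per gene and cell barcode, made by the authors without normalization, per the file headers. Cell Ranger 3.1.0, Seurat 4.0.4 and mm10/GRCm38 are named, per the submitters' processing notes, while version 3.0.2 stands in the headers of the matrices. The labels' protocol names a 5′ kit and the design text 3′. How reads shared by near-identical histone genes were assigned is not given in the sources used here.

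Cells with at least 500 genes and at most 10% mt- UMIs were kept (56240310 vehicle and 96084632 AG-120 UMIs). Levels are summed UMIs per 1000000 UMIs of the library or, for a kind of cells, of those cells (CPM), and per kb where genes are ranked by length. Ratios carry exact conditional binomial 95% intervals, levels exact Poisson intervals, shares exact binomial intervals. With 1 library per treatment no test was made and no p-value is given; 1.5-fold is a description. Doublets were not called and stayed in. Calculations used Python 3.11.15, numpy 2.4.6, scipy 1.17.1 and pandas 2.3.3, and the interval code was tested on simulated data.

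The members and gene lists were chosen with earlier results of these data known. Named genes were the 12 members with most UMIs, the 5 highest and 5 lowest of the library ratio and of the Mki67 ratio (the smaller of the libraries for the highest, the larger for the lowest), Hist1h2bc, and up to 6 genes with most UMIs of each related list; others were named after their values were seen. Gene and transcript positions are from GENCODE mouse release 21. Identity was computed on coding nucleotides in place of proteins, and the stem-loop was not searched past transcript ends or in bases spliced out.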

Additional observations from a re-analysis of the deposited data

Results flagged for a closer look

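Hist1h2bc moved in opposite directions in the 2 libraries when cells with Mki67 were set against cells without: the ratio was 1.4997 in the vehicle library (interval 1.34 to 1.68) and 0.691 in the AG-120 library (0.616 to 0.774). Each is 1 library, so the difference between them was not tested. Cells without Mki67 held mitotic transcripts more often in the AG-120 library (1188 of 1415 cells) than in the vehicle library (846 of 2267), and the part of this in the result was not tested. The opposite directions were kept at 3000 and 10000 UMIs and without thinning, but with Top2a in place of Mki67 both log2 ratios were negative (−0.43 and −1.01).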

How the results depend on the processing

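With 1 library per treatment no replicate was left out, and the error between samples is unknown. No paired analysis was possible because the labels give no replicate numbers. AG-120 cells without cycle transcripts number 12, so low members cannot be read there. Alternatives in cells without Mki67 beyond those planned were chosen after seeing the data.

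The summed AG-120/vehicle log2 ratio of −0.56 became −0.38 centred on the median of all genes, −0.50 with each cell weighted equally or thinned, −0.51 without the 5% of cells with most UMIs, −0.63 without Hist1h2ap, −1.26 in cells with Mki67 and 0.25 in cells without. Members higher by 1.5-fold, 0 as given, were 1 when centred, when each cell was weighted equally, in thinned cells and in Klf1 cells, 2 at 1.2-fold and 10 in cells without Mki67, where members lower fell from 41 to 24. Against cells without Mki67, AG-120 members lower were 1 instead of 0 without thinning or with Top2a and 3 at 1.2-fold, and AG-120 members higher were 19 at 2-fold instead of 34. In the vehicle library 1 member was lower at 1.2-fold.

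The log2 ratio in cells without Mki67, 0.25 as given, was 0.12 at 3000 UMIs, −0.25 without thinning, −0.17 without Top2a as well and −0.93 without any cycle transcript. Within gates at 3000 UMIs it was −0.90 in Klf1 cells, −1.23 in those with Mki67 and −0.36 in those without, −1.32 in Cd34 cells with Mki67, −1.14 in Pf4 cells with and −0.14 in those without, and 0.053 in Mpo cells without. With at least 2 UMIs of the gate gene it was −1.02 in Klf1 cells, −1.27 in those with Mki67, −0.25 in Cd34 cells, −0.79 in those with Mki67 and −1.13 in Pf4 cells with Mki67. The log2 ratio of G1/S only to mitotic only cells, −1.85 in the vehicle and −1.17 in the AG-120 library, was −1.62 and −0.64 at 3000 UMIs, and −1.53 in the AG-120 library at 10000.

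Of 436 values of named members under the alternatives, 32 had the opposite sign to the value as given. In 27 of these the value as given was short of 1.5-fold; 8 were library ratios in cells without Mki67, Hist1h2ap and Hist1h2ae among them. The 5 past 1.5-fold were, by log2 ratio, Hist1h3b between libraries in cells without Mki67 (0.49), and by Mki67 Hist1h2br in the AG-120 library at 3000 UMIs (−0.44) and with Top2a (−1.14), Hist2h2aa1 there at 3000 UMIs (−0.024) and Hist3h2ba in the vehicle library with Top2a (−0.028). The cause was not tested.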
